A study of Mus musculus with 16 samples.

Results

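The Schlafen genes are a family of mouse growth and defence genes that lie side by side on chromosome 11, and 7 of them, Slfn1, Slfn2, Slfn3, Slfn4, Slfn5, Slfn8 and Slfn9, are described here. They are 7 of the 55359 genes counted in the files, found by matching each Ensembl identifier, without its version, to these symbols. The family was chosen on its measured levels in these same libraries, so the comparisons between groups below are a description and carry no test for the 7 members. Where a member is said to be called or not called, this only describes on which side of the threshold its fit fell. The libraries came from MPI-2 cells, a wild-type mouse line of alveolar-like macrophages kept in medium with GM-CSF, penicillin and streptomycin. Part of the cultures met Mycobacterium abscessus, a fast-growing mycobacterium that survives in macrophages and causes lung infection, and the others were left uninfected. Polyadenylated RNA was sequenced from 4 cultures labelled as biological replicates in each of 4 groups: exposed day 5, uninfected day 5, exposed day 1 and uninfected day 1. All groups share the cell line, genotype and medium, and 1 cell line stands for the cell type. The bacterial strain, its dose and how many cells took up bacteria are not given in the sources used here. Each value is thus an average over a culture, and fewer cells that express a gene cannot be told apart from less RNA per cell.

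Schlafen proteins share a core domain that binds and, in some members, cuts transfer RNA. The short members Slfn1 and Slfn2 consist of little more than that core, Slfn3 and Slfn4 are of intermediate length, and the long members Slfn5, Slfn8 and Slfn9 carry a helicase-like domain as well. Several members are interferon-stimulated genes, switched on by a factor complex that holds Stat2 and Irf9 and binds the interferon-stimulated response element (ISRE) in DNA. In mice, Slfn2 keeps T cells and monocytes quiescent, and Slfn4 marks myeloid cells of the inflamed stomach. In human cells, SLFN11, a long relative, cleaves transfer RNAs and acts at stressed replication forks.

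DNA just before the start of the long members is shown first because Slfn8 and Slfn9 have the most alike promoters of the family and very different values in these libraries. The runs below are the 250 bases before the RefSeq start of each gene, the first of 2 for Slfn8, 5′ to 3′ in the direction of the gene, from RefSeq on build GRCm38.p6. Slfn5 lies at chr11:82951852-82952101 on the plus strand, and Slfn8 at chr11:83020811-83021060 and Slfn9 at chr11:82991831-82992080 on the minus strand. Capitals mark each match to an ISRE-type pattern, GAAANNGAA, on either strand.
Slfn5: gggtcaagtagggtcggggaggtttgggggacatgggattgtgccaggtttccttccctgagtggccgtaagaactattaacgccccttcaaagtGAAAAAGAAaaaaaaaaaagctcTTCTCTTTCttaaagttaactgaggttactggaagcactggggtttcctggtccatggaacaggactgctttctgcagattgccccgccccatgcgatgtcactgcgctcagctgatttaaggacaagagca
Slfn8: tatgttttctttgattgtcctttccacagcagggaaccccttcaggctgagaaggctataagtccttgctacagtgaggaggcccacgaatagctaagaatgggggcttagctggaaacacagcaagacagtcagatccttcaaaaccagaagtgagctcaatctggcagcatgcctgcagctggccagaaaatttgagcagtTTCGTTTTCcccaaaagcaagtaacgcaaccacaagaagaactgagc
Slfn9: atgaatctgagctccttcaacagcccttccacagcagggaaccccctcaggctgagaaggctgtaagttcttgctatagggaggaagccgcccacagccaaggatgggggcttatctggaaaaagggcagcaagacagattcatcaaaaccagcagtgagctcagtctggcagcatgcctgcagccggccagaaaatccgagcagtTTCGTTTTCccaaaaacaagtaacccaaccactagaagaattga
Slfn5 had 2 matches, starting 155 and 132 bases before the start, while Slfn8 and Slfn9 had 1 each, the same 9 letters, starting 47 and 44 bases before it. RefSeq gives Slfn8 a second start, from which the same match lies 135 bases upstream. The Slfn8 and Slfn9 promoters were 80.8% identical when aligned over 300 bases, 50 of them after the start, and every other pair of members lay between 46.5% and 53.0%. In the same window 8.56% of 32851 RefSeq promoters held the pattern. Counted by gene, 9.76% of 27025 genes held it in at least 1 promoter, and 3 of the 7 members did. The interferon-gamma-type pattern TTCNNNGAA, held by 8.30% of promoters and 9.55% of genes, was in the window of 0 of the 7. A match is a string of letters in this window and was not tested as a binding site.

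Slfn1, Slfn2, Slfn3 and Slfn4 had no match to either pattern. Their windows are shown for a string they share, ACTTCCTGG, in capitals, which was picked as the longest string common to all 4. Each run covers the bases from 100 to 21 before the start on the plus strand of the same build, at chr11:83116720-83116799, chr11:83065012-83065091, chr11:83191230-83191309 and chr11:83175086-83175165.
Slfn1: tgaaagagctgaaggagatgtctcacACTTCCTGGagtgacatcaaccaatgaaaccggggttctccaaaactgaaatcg
Slfn2: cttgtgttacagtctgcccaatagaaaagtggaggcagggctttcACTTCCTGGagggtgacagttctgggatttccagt
Slfn3: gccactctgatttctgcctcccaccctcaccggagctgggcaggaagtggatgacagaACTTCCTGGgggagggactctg
Slfn4: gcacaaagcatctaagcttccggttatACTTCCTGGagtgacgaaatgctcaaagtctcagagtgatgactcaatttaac
The string, searched on both strands, stands in 0.843% of the 32851 promoters. In Slfn1, Slfn2 and Slfn4 it goes on for 2 more letters, and the longer string stands in 0.0731%. The Slfn4 promoter was poorer in G and C, at 33.7%, than those of the other members, at 49.0% to 53.0%. The RefSeq start of Slfn1 was not found in the GENCODE M21 transcript of the gene, so its window may not begin at the start used in these cells.

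Library totals lay between 46154875 and 81995629 counts. CPM, the usual depth-scaled read count, are computed below on library totals after TMM scaling, and SDs are over 4 libraries. Log2 fold changes come from 1 edgeR fit to all 16 libraries. Their standard errors are approximate: each is the size of the fold change over the square root of the F statistic of its edgeR test. The fit estimates 1 spread per gene over all groups, so a standard error also draws on groups outside its comparison. Of the 4 exposed day 5 libraries, replicates 2 and 3 carry another library code in the file names than all other libraries. Mitochondrial transcripts took 0.780% to 1.24% of counts in exposed day 5 libraries and 1.58% to 1.84% in uninfected day 5 libraries. All 14 alveolar macrophage markers averaged at least 1 CPM in every group, with summed levels of 18182 to 25666 CPM in exposed day 5 libraries and 23391 to 31173 CPM in uninfected day 5 libraries. Single markers differed both ways: Chil3 averaged 2989 CPM in exposed day 5 and 16119 CPM in uninfected day 5 libraries and Mrc1 102 and 375 CPM in these groups, while Lyz2 averaged 7896 and 2255 CPM and Itgax 927 and 193 CPM. At day 1 the sums were 17319 to 20337 CPM in exposed and 19448 to 21265 CPM in uninfected libraries. Of 7 T cell markers Lck alone passed 1 CPM, and the summed level was 8.91 to 15.4 CPM in exposed day 5 and 1.75 to 2.17 CPM in uninfected day 5 libraries. Cd3g and Cd8a had 0 counts in every library, while Cd3d, Cd3e, Cd4 and Trac were detected at under 1 CPM. Markers of B cells and NK cells stayed under 1 CPM. The 6 neutrophil markers summed to 410 to 886 CPM in exposed day 5 and 446 to 613 CPM in uninfected day 5 libraries. At day 1 they summed to 761 to 1049 CPM in exposed and 300 to 391 CPM in uninfected libraries, without overlap. Most of that was S100a8, with 872 CPM in exposed day 1 and 338 CPM in uninfected day 1 libraries. Camp averaged 4.38 CPM in exposed day 5 and 0.0570 CPM in uninfected day 5 libraries. S100a9 and Mpo went the other way, with 3.94 and 0.643 CPM in exposed day 5 and 7.28 and 3.25 CPM in uninfected day 5 libraries. Ly6g and Elane stayed under 1 CPM. The summed markers of dendritic cells were 6.84 to 8.30 CPM in exposed day 5 and 3.75 to 4.15 CPM in uninfected day 5 libraries. Those of fibroblasts were 9.43 to 13.2 and 20.4 to 22.4 CPM in these groups, those of epithelium 14.0 to 24.4 and 69.7 to 73.7 CPM. The dendritic cell sum was mostly Zbtb46, with means of 7.24 and 3.88 CPM in these groups. Pdgfra, with 11.2 and 20.8 CPM, made most of the fibroblast sum, and Cdh1, with 18.0 and 71.1 CPM, most of the epithelial sum. All other markers of these lists stayed under 1 CPM, and Col1a2 had 0 counts in every library. The marker lists moved beside the Schlafen genes as given, and their part in the results was not tested.

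In uninfected cells the family was present mainly as Slfn2 and Slfn9, and its summed level was higher in exposed cells on both days. The 7 members together held 1463 to 2465 CPM in exposed day 5 libraries, 259 to 327 CPM in uninfected day 5 libraries, 757 to 859 CPM in exposed day 1 libraries and 236 to 255 CPM in uninfected day 1 libraries. Per kilobase of exon, which allows genes to be set against each other, Slfn2 stood first in every group. It held 879 ± 224 CPM per kilobase in exposed day 5 and 151 ± 19.9 CPM per kilobase in uninfected day 5 libraries, or 84.1% and 95.4% of the family.

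The order below Slfn2 differed between exposed and uninfected cells. In exposed day 5 libraries Slfn4 followed with 82.7 ± 56.2 CPM per kilobase, Slfn8 with 57.5 ± 15.8, Slfn1 with 13.5 ± 5.57, Slfn9 with 8.16 ± 1.27, Slfn3 with 3.40 ± 1.66 and Slfn5 with 0.987 ± 0.396. In uninfected day 5 libraries Slfn9 followed Slfn2 with 6.09 ± 0.792 CPM per kilobase, then came Slfn8 with 0.736 ± 0.112, Slfn3 with 0.389 ± 0.0826, Slfn1 with 0.0556 ± 0.0205, Slfn4 with 0.0305 ± 0.0126 and Slfn5 with 0.0186 ± 0.00548. Libraries of Slfn4 and Slfn8, and of Slfn1 and Slfn9, overlapped in the exposed day 5 order. Libraries of Slfn1 and Slfn4, and of Slfn4 and Slfn5, overlapped in the uninfected day 5 order. At day 1, exposed libraries had the order Slfn2, Slfn8, Slfn9, Slfn4, Slfn5, Slfn1 and Slfn3, with overlap between neighbours from Slfn4 on. Uninfected day 1 libraries had the order Slfn2, Slfn9, Slfn3, Slfn8, Slfn4, Slfn1 and Slfn5, with overlap between Slfn4 and Slfn1.

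**Figure D1:**
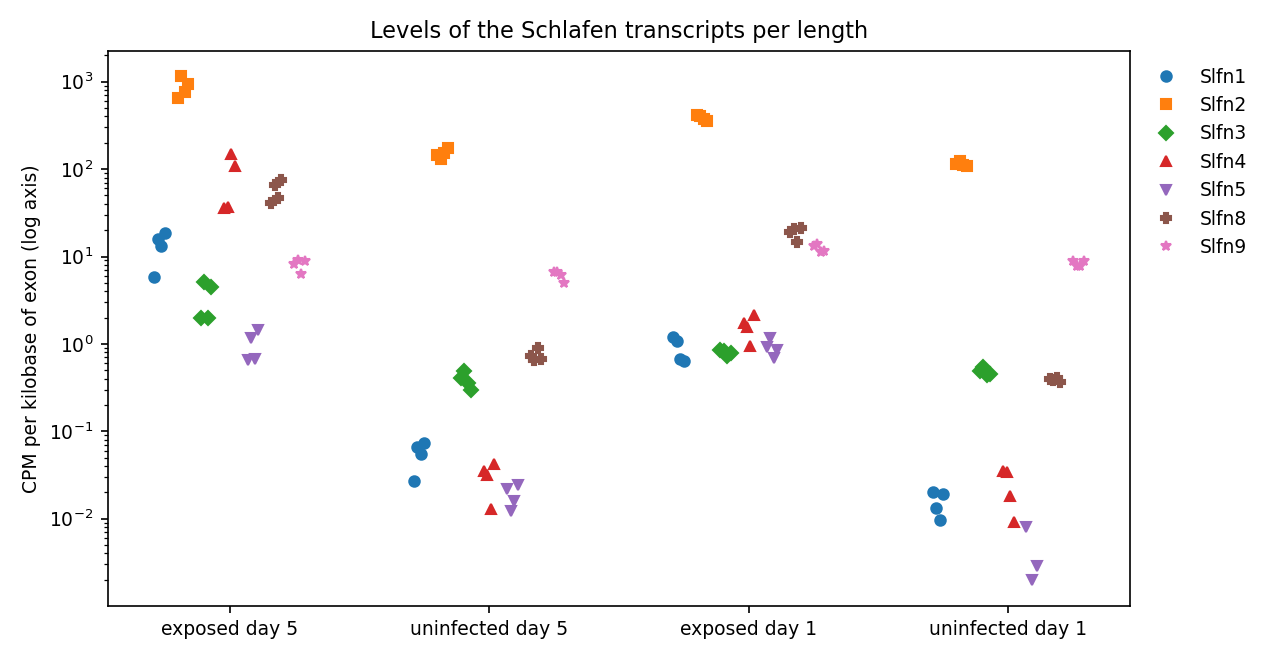
CPM per kilobase of exon (log axis) of the 7 Schlafen genes in the 4 groups, 1 point per library; the uninfected day 1 library with 0 Slfn5 counts is left out. Slfn2 lies above every other member in all 4 groups, and Slfn4 stands at 82.7 ± 56.2 in exposed day 5 libraries and at 0.0305 ± 0.0126 in uninfected day 5 libraries (mean ± SD, n = 4 each).

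Slfn2 (ENSMUSG00000072620), the quiescence factor, had the highest level and one of the smaller fold differences. Its libraries held 1081, 1936, 1267 and 1566 CPM in exposed day 5 cells and 238, 215, 256 and 294 CPM in uninfected day 5 cells. At day 1 they held 685, 671, 618 and 586 CPM in exposed cells and 190.3, 204, 186 and 181 CPM in uninfected cells. All exposed libraries lay above all uninfected ones, and the 4 groups did not overlap. The log2 fold change over uninfected cells was 2.54 ± 0.15 at day 5 (5.83-fold) and 1.75 ± 0.14 at day 1 (3.36-fold). Between days, exposed cells were higher at day 5 by 1.19 ± 0.14 on the log2 scale and uninfected cells by 0.40 ± 0.14.

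Slfn1 (ENSMUSG00000078763), the other short member, was barely detected in uninfected cells. Its libraries held 10.8, 29.7, 24.9 and 35.0 CPM in exposed day 5 cells and 0.0508, 0.124, 0.102 and 0.138 CPM in uninfected day 5 cells. At day 1 they held 2.23, 2.04, 1.25 and 1.19 CPM in exposed cells and 0.0377, 0.0249, 0.0181 and 0.0362 CPM in uninfected cells, the last of these from 8 counts over 4 libraries. No groups overlapped, and exposed day 5 replicate 1 was the lowest of its group. The log2 fold change was 7.93 ± 0.41 at day 5 and 5.76 ± 0.54 at day 1. From summed counts alone the ratio of exposed to uninfected cells was 242 at day 5, with an exact 95% interval of 168 to 362, and 59.2 at day 1, with 29.8 to 138; such intervals cover counting error only.

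Slfn4 (ENSMUSG00000000204), the myeloid member, showed the largest difference of the 7 at day 5 and the widest spread among exposed cultures. Its libraries held 141, 148, 596 and 427 CPM in exposed day 5 cells, against 0.140, 0.124, 0.0508 and 0.168 CPM in uninfected day 5 cells. The uninfected values rest on 34 counts over 4 libraries, and the exposed ones on 78255. Replicates 3 and 4 held more than replicates 1 and 2, with a 4.22-fold range, and all lay far above the uninfected libraries. The log2 fold change at day 5 was 11.41 ± 0.64, and the ratio of summed counts was 2594, with an exact 95% interval of 1856 to 3746. At day 1 the libraries held 6.79, 6.20, 3.72 and 8.55 CPM in exposed cells and 0.138, 0.137, 0.0724 and 0.0362 CPM in uninfected cells, again without overlap. That is a log2 fold change of 5.91 ± 0.66. Exposed cells were 52.2-fold higher at day 5 than at day 1, while uninfected libraries of both days overlapped.

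Slfn3 (ENSMUSG00000018986), known from the differentiation of gut epithelium in rodents, is the nearest relative of Slfn4 among the members apart from the Slfn8 and Slfn9 pair, with transcripts 73.3% identical over 2684 aligned columns. Its libraries held 6.68, 17.6, 6.80 and 15.3 CPM in exposed day 5 cells and 1.40, 1.68, 1.22 and 1.01 CPM in uninfected day 5 cells. At day 1 they held 2.93, 2.83, 2.49 and 2.67 CPM in exposed cells and 1.68, 1.88, 1.50 and 1.56 CPM in uninfected cells. The groups did not overlap on either day, yet the day 1 difference was small. The log2 fold change was 3.13 ± 0.28 at day 5 and 0.72 ± 0.27 at day 1, where Slfn3 was the only member not called. It was called with DESeq2 and with any exposed day 5 library left out. Its SD was 48.9% of the mean in exposed day 5 libraries, which enter the spread of the fit. In exposed and uninfected day 1 libraries it was 6.99% and 10.1%.

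The exposed day 5 libraries fell into different orders for Slfn3 and Slfn4. Replicate 3 was the highest for Slfn4 and the second lowest for Slfn3, and the ratio of Slfn4 to Slfn3 per kilobase was 7.23 to 75.4 in exposed day 5 and 0.0359 to 0.143 in uninfected day 5 libraries. Of stretches of 50 bases in the longest Slfn3 transcript, 18.0% also occur in another gene, 7.97% in Slfn4, and 3.62% of stretches of 100 bases do. For Slfn4 the shares were 11.1% and 0.29%. How reads shared by such relatives were counted is not stated, so values of either gene may hold reads of the other or of the pseudogene Gm11427. Gm11427 holds 3.40% of the 100-base stretches of Slfn3. It averaged 73.9 CPM in exposed day 5 and 26.1 CPM in uninfected day 5 libraries, against 11.6 and 1.33 CPM for Slfn3. The part of such reads in the Slfn3 values was not tested.

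Slfn5 (ENSMUSG00000054404), a nuclear long member whose human counterpart dampens transcription by interferon factors, had overlapping levels in exposed cells of day 5 and day 1. Its libraries held 4.10, 7.41, 4.24 and 9.22 CPM in exposed day 5 cells and 0.140, 0.0776, 0.102 and 0.153 CPM in uninfected day 5 cells. At day 1 they held 5.90, 7.48, 4.33 and 5.37 CPM in exposed cells and 0.0502, 0.0124, 0 and 0.0181 CPM in uninfected cells, from 4, 1, 0 and 1 counts. In the library with 0 counts, 3 counts would be 0.0543 CPM. Exposed and uninfected libraries did not overlap on either day, while the exposed libraries of the 2 days did. The log2 fold change was 5.70 ± 0.35 at day 5 and 7.92 ± 0.44 at day 1, a difference between days of -2.22 ± 0.73, where Slfn9, with -0.16 ± 0.16, was the other member whose estimate was smaller at day 5. The uninfected level differed between days, at 0.118 ± 0.0347 CPM on day 5 and 0.0202 ± 0.0214 CPM on day 1 (SD, n = 4 each), while the exposed level was 6.24 ± 2.51 CPM on day 5 and 5.77 ± 1.31 CPM on day 1. From 1618 against 6 summed counts, the day 1 ratio was 264 with an exact 95% interval of 121 to 721.

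Slfn8 (ENSMUSG00000035208) and Slfn9 (ENSMUSG00000069793) are neighbours on the minus strand, with transcripts 88.7% identical over 3937 aligned columns and with the promoters printed above. Slfn8 held 169.6, 272, 193 and 306 CPM in exposed day 5 libraries and 2.97, 2.65, 3.67 and 2.76 CPM in uninfected day 5 libraries. At day 1 it held 77.6, 85.0, 59.5 and 87.8 CPM in exposed libraries and 1.62, 1.58, 1.65 and 1.48 CPM in uninfected libraries. No groups of Slfn8 overlapped, and the lowest exposed library lay far above the highest uninfected one on both days. Its log2 fold change was 6.28 ± 0.20 at day 5 and 5.61 ± 0.20 at day 1.

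Slfn9 differed little. It held 49.3, 54.9, 37.9 and 52.7 CPM in exposed day 5 libraries and 39.5, 39.6, 36.7 and 29.5 CPM in uninfected day 5 libraries. At day 1 it held 78.6, 82.7, 66.9 and 69.6 CPM in exposed libraries and 52.8, 46.8, 46.7 and 53.1 CPM in uninfected libraries. Exposed libraries lay above uninfected ones at day 1, whereas at day 5 exposed replicate 3 fell among the uninfected libraries. The log2 fold change was 0.42 ± 0.11 at day 5 (1.34-fold) and 0.58 ± 0.11 at day 1 (1.49-fold). Slfn9 was also the only member with lower levels at day 5 than at day 1 in both kinds of culture, with log2 differences of -0.61 ± 0.11 in exposed and -0.46 ± 0.11 in uninfected cells.

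The balance of the pair differed between groups without overlap. Per kilobase, Slfn8 over Slfn9 was 5.02 to 8.48 in exposed day 5 libraries, 0.0978 to 0.146 in uninfected day 5 libraries, 1.30 to 1.84 in exposed day 1 libraries and 0.0407 to 0.0514 in uninfected day 1 libraries. Of stretches of 50 bases, 15.4% in Slfn8 and 11.4% in Slfn9 also occur in other genes, mostly the pseudogene Slfn10-ps. Of stretches of 100 bases, 3.71% in Slfn8 and 3.90% in Slfn9 do. The part that shared reads play in the Slfn9 difference was not tested.

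**Figure D2:**
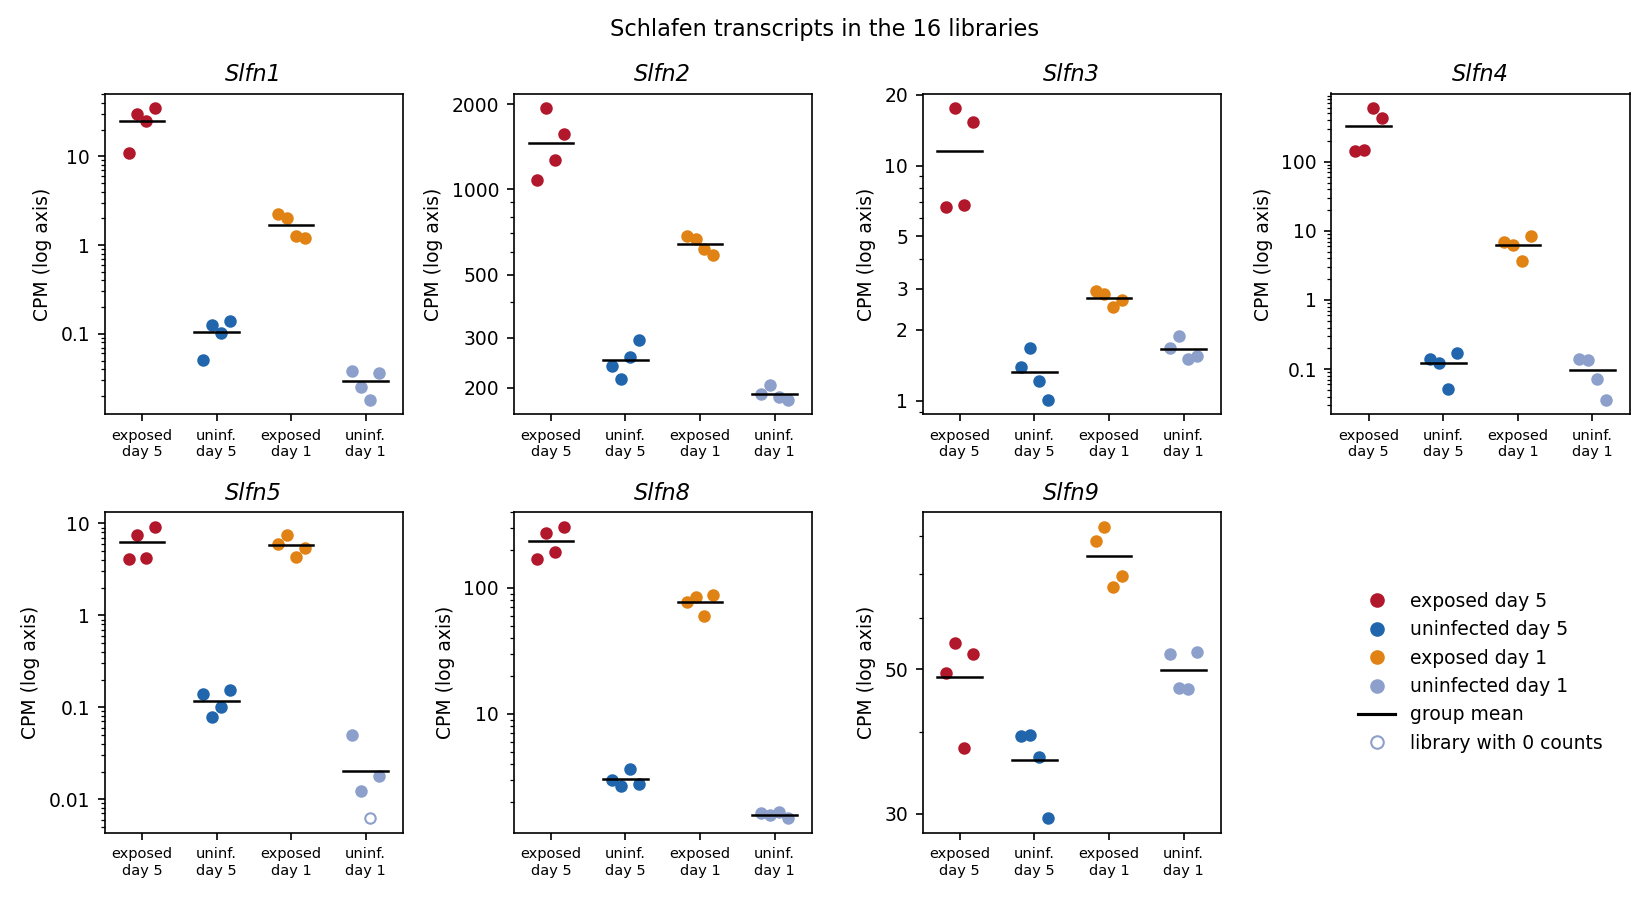
CPM of each Schlafen gene in the 16 libraries (log axes, 1 point per library, 4 per group), with the group mean as a bar and the Slfn5 library with 0 counts as an open point below the others. Exposed libraries lie above the uninfected ones of the same day in every panel but Slfn9 at day 5, where an exposed library at 37.9 CPM stands below uninfected libraries at up to 39.6 CPM.

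All 7 members passed edgeR's filter on low counts over the 16 libraries, but Slfn1, Slfn4 and Slfn5 would not pass it from the uninfected libraries alone and owe their place to the exposed groups. At an adjusted p under 0.05 over 17190 tested genes, 7 members were called higher in exposed cells at day 5, where 28.6% of all tested genes were higher and 28.4% lower. At day 1 it was 6 members, all higher, where 13.4% of genes were higher and 10.5% lower. Every exposed library lay above every uninfected one for 6 members at day 5, against 22.3% of all genes, and for 7 members at day 1, against 19.6%. Since the family was chosen on these values, nothing is read from these counts.

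The exposure effect was called larger at day 5 for Slfn2, Slfn3, Slfn4 and Slfn8 and smaller for Slfn5. Of all genes, 16.4% were called in the upward and 19.5% in the downward direction. For members, these calls and those between days below are a description and carry no test. The difference was 5.50 ± 1.51 for Slfn4, 2.41 ± 0.38 for Slfn3, 0.79 ± 0.20 for Slfn2 and 0.67 ± 0.25 for Slfn8 on the log2 scale, and 2.17 ± 1.16 for Slfn1, which was not called. The Slfn8 call was lost in 11 of 16 fits with a library left out and the Slfn5 call without uninfected day 1 replicate 2 or 3.

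Between days, 6 members were called in exposed cultures: Slfn1, Slfn2, Slfn3, Slfn4 and Slfn8 higher and Slfn9 lower at day 5, where 25.6% of all genes were higher and 25.2% lower. In uninfected cultures Slfn5 and Slfn8 were called higher at day 5 and Slfn9 lower, where 10.8% of all genes were higher and 8.91% lower. Slfn1 (1.72 ± 0.86) and Slfn2 (0.40 ± 0.14) were not called there, though every day 5 library lay above every day 1 library. Uninfected Slfn8 averaged 3.01 ± 0.457 CPM at day 5 and 1.58 ± 0.0714 CPM at day 1 (SD, n = 4 each), a log2 difference of 0.93 ± 0.20. The Slfn5 call between uninfected days was lost without uninfected day 5 replicate 4 or without uninfected day 1 replicate 2, 3 or 4. Several of these comparisons share libraries, so a group that stands high or low enters more than 1 of them.

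Exposed day 5 cultures differed among themselves, and not by the same order for every member. Replicate 1 was the lowest for every member but Slfn9, and replicates 2 and 4 were the highest pair for Slfn1, Slfn2, Slfn3, Slfn5, Slfn8 and Slfn9. Slfn4 was the exception, with replicates 3 and 4 highest. The interferon factor gene Irf7, which is no member, held 191, 393, 222 and 486 CPM in the same 4 libraries and thus had the order of Slfn1, Slfn5 and Slfn8. Replicates 2 and 3, which share a library code, were not set apart in this order. Their mean was 1.31 times that of replicates 1 and 4 for Slfn4, and 0.874 to 1.21 times for the other members.

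Across all 16 libraries, correlations of the deviations from the group mean in log2 CPM ran, over the 21 pairs of members, from r = -0.380 between Slfn4 and Slfn9 to r = 0.674 between Slfn3 and Slfn9. The next highest were 0.659 between Slfn3 and Slfn8 and 0.652 between Slfn1 and Slfn2, and the other negative value was -0.0348 between Slfn3 and Slfn4. Within each of the 16 libraries all members share its depth and culture, and these r carry no test.

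**Figure D3:**
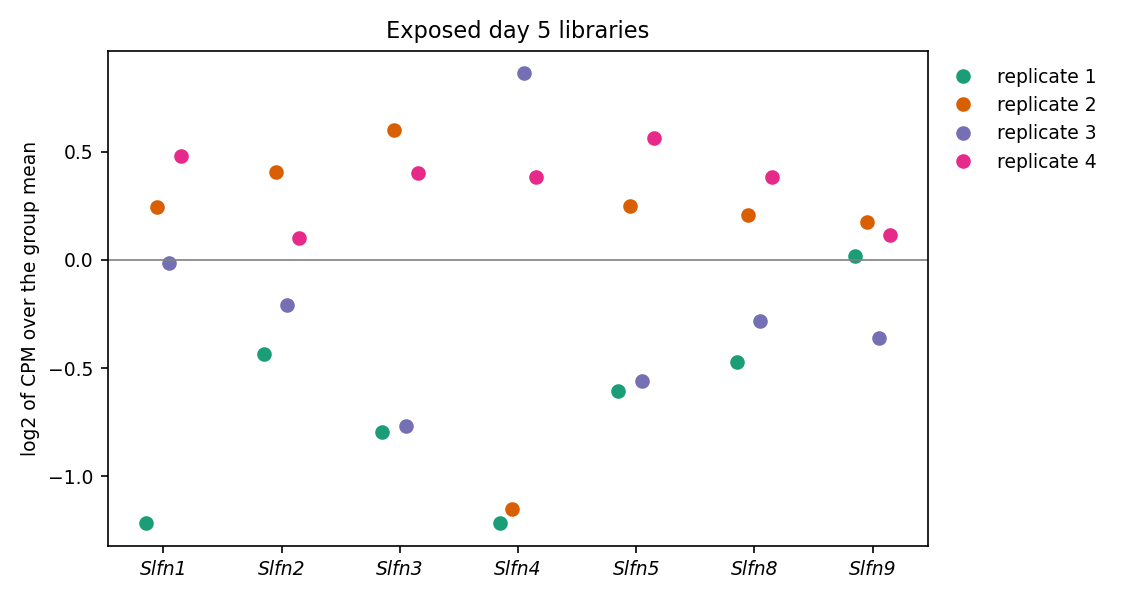
Level of each Schlafen gene in the 4 exposed day 5 libraries as the log2 of its CPM over the group mean, 1 point per library. Replicate 3 lies at 0.86 for Slfn4 and below 0 for the other 6 genes.

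The genes whose log2 CPM ran most like each member over the 16 libraries differed between members. For Slfn8 they were Irf7, the master factor of interferon-alpha genes (Pearson r = 0.998), Xaf1, an interferon-induced promoter of cell death (r = 0.998), and Sp100, a nuclear body component (r = 0.998). For Slfn5 they were Dhx58, an RNA sensor of the RIG-I family (r = 0.988), and the oligoadenylate synthetase genes Oas2 and Oas3 (r = 0.988 and 0.987). Slfn1 and Slfn2 both stood next to Ube2l6, the conjugating enzyme for ISG15 (r = 0.992 and 0.995). The others were Dram1, a p53-responsive autophagy gene (r = 0.989), and Samd9l, an interferon-induced antiviral gene (r = 0.988), for Slfn1. For Slfn2 they were Psme2, a subunit of the proteasome activator (r = 0.994), and Selenow, a selenoprotein gene (r = 0.992).

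For Slfn3 they were Met, a growth factor receptor (r = 0.996), Nfkb1, a subunit of NF-kB (r = 0.989), and Tent5c, a poly(A) polymerase (r = 0.986). For Slfn4 they were Slc25a37, a mitochondrial iron importer (r = 0.992), Dram1, which stood near Slfn1 too (r = 0.991), and Agrn, which encodes agrin (r = 0.990). For Slfn9 they were B4galt5, a galactosyltransferase (r = 0.967), Fam167a (r = 0.934) and Sgcb, a sarcoglycan (r = 0.928). Since 4 group means dominate these r, they describe the pattern over groups. By Spearman rank, 3 of the 3 neighbours stayed for Slfn9, 1 each for Slfn3 and Slfn8 and 0 for the other members. Without the exposed day 5 libraries it was 1 each for Slfn3 and Slfn8 and 0 for the other 5.

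GENCODE M21 lists 26 genes from Slfn5os to Slfn14, of which 12 were tested: the 7 members and 5 others. In chromosomal order, Slfn9 stands between Slfn5 and Slfn8, and Slfn3 directly follows Slfn4. Of the 5 others, chosen for their place and named after their values were seen, the noncoding transcript AI662270 averaged 109 ± 4.82 CPM in exposed day 5 and 77.5 ± 9.87 CPM in uninfected day 5 libraries (log2 fold change 0.50 ± 0.08, edgeR adjusted p = 4.17e-05).

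The pseudogene Gm11427, next to it, held 65.0, 61.7, 86.7 and 82.3 CPM in exposed day 5 libraries and 26.2, 24.7, 24.9 and 28.4 CPM in uninfected day 5 libraries. It was higher in all 4 exposed libraries, with replicates 3 and 4 highest as for Slfn4. Its log2 fold change was 1.50 ± 0.13 at day 5 (edgeR adjusted p = 7.72e-09) and 0.59 ± 0.13 at day 1 (adjusted p = 0.00223). It shares 3.40% of the 100-base stretches of Slfn3 and 0.23% of those of Slfn4. The pseudogene Slfn10-ps averaged 0.847 ± 0.265 CPM in exposed day 5 and 0.239 ± 0.156 CPM in uninfected day 5 libraries (log2 fold change 1.84 ± 0.48, adjusted p = 0.00268, 4 of 4 exposed libraries above). It shares 2.68% of the 100-base stretches of Slfn8. Gm11425 and Gm20234, a gene annotated antisense to Slfn2, were not called at day 5 (log2 fold change 0.74 ± 0.32 and 0.47 ± 0.53).

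**Figure D4:**
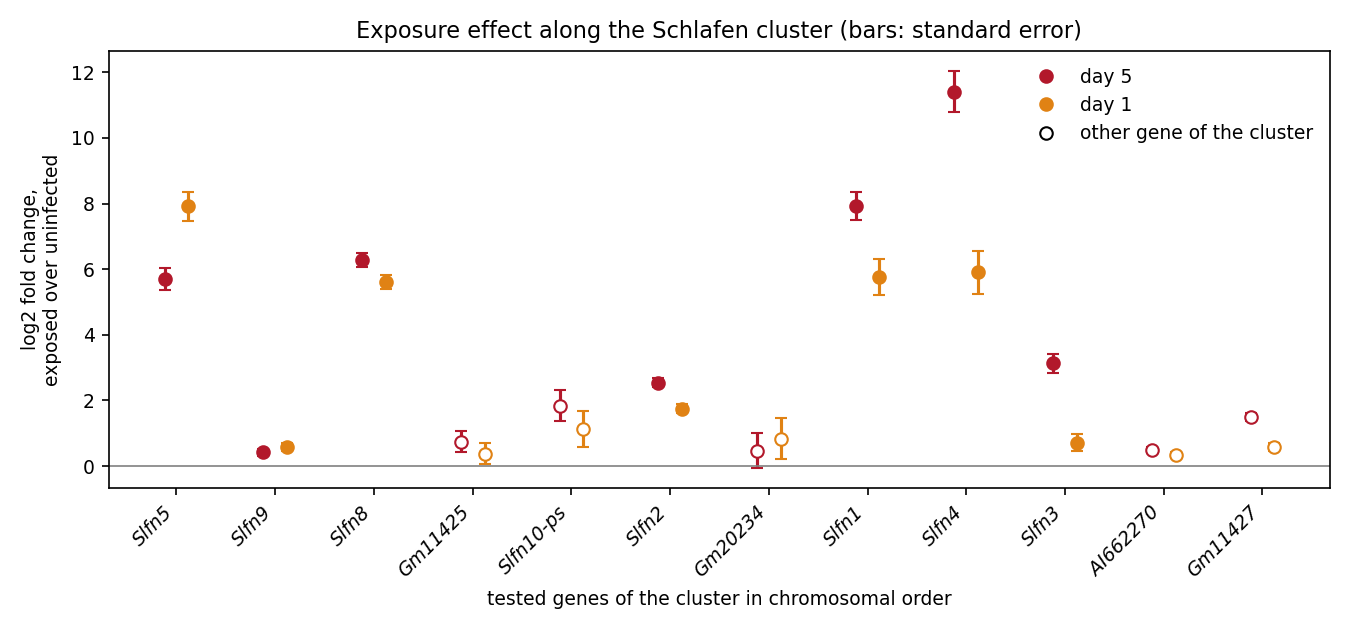
Log2 fold change of exposed over uninfected cells at day 5 and day 1, with standard errors, for the 12 tested genes of the cluster in chromosomal order (filled: the 7 members; open: other genes). Slfn9 stays near 0 between Slfn5 and Slfn8, and Slfn4 at day 5 stands highest at 11.41 ± 0.64.

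Other Schlafen genes were barely detected. Slfn14, a ribosome-associated endoribonuclease at the far end of the cluster, had 3 counts over the exposed day 5 libraries and 3 over the uninfected day 5 ones. Slfnl1 had 21 and 6, and the antisense Slfn5os had 0 in both groups.

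Of 11 genes flanking the cluster, 9 were tested. At day 5, 1 was higher and 3 lower in exposed cells (28.6% and 28.4% of all tested genes), and the median log2 fold change was 0.04, against 0.02 over all genes. At day 1, 1 was higher and 0 lower (13.4% and 10.5% of all), with a median of 0.07, against 0.03 over all genes. The one that rose on both days was Rffl, a ubiquitin ligase, with 46.7 ± 9.60 CPM in exposed day 5 and 20.3 ± 0.530 CPM in uninfected day 5 libraries (log2 fold change 1.21 ± 0.11, edgeR adjusted p = 1.31e-08, higher in 4 of 4 libraries). Rad51d and Fndc8 fell at day 5 by 0.27 ± 0.08 and 1.92 ± 0.67 on the log2 scale, and Nle1 fell by 0.24 ± 0.07. Lig3, Ap2b1, Rasl10b and Taf15 were not called on either day. Unc45b, a myosin chaperone gene too low to be tested, had 65 counts over exposed day 5 libraries and 2 over uninfected day 5 libraries. Gas2l2, also untested, had 7 and 8.

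The interferon pathway, known to drive several Schlafen genes, was measured in the same libraries. Among ligands, 2 of 21 genes passed the filter, Ifnb1 and Ifna5, and since both did so only through the exposed groups, where they were high, their values carry no test. Ifnb1, the beta interferon, held 0.727, 2.95, 1.08 and 1.94 CPM in exposed day 5 libraries and 0, 0, 0.102 and 0.0766 CPM in uninfected day 5 libraries, without overlap. At day 1 it had 22, 9, 10 and 15 counts in the exposed libraries and 0 in each uninfected one. With 3 counts put over the uninfected group, the ratio is 18.3. Such ratios leave out the counting error of exposed libraries and the spread between cultures, so they are no lower bounds. Ifna5, an alpha interferon, had 100 counts over exposed day 5 and 0 over uninfected day 5 libraries, a ratio of 37.6 against 3 counts. At day 1 it had 15 against 0, a ratio of 4.90 against 3 counts over the group, but single exposed libraries overlapped with the uninfected ones. Interferon-gamma (Ifng) and the lambda interferon genes Ifnl2 and Ifnl3 had 0 counts in every group.

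Of 8 tested genes of receptors and Janus kinases, 7 were higher and 1 lower at day 5, where 28.6% of all tested genes were higher and 28.4% lower, with a median log2 fold change of 0.66. At day 1, where these shares were 13.4% and 10.5%, 2 were higher and 0 lower, with a median of 0.13. The shares are the same for the lists that follow, and the medians over all genes were 0.02 at day 5 and 0.03 at day 1. Jak2, a kinase of cytokine receptors, rose to 218 ± 79.6 CPM in exposed day 5 libraries, against 69.6 ± 3.89 CPM in uninfected ones (log2 fold change 1.64 ± 0.18, edgeR adjusted p = 3.96e-07). Ifnar2 and Ifnar1, the type I receptor chains, rose by 1.07 ± 0.09 and 0.88 ± 0.11 on the log2 scale, while Ifngr1, a chain of the interferon-gamma receptor, fell by 0.78 ± 0.08.

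Of 10 interferon transcription factors, 6 were higher and 3 lower at day 5, with a median log2 fold change of 1.61. At day 1, 7 were higher and 2 lower, with a median of 1.00. Stat2 and Irf9, parts of the complex that binds the ISRE, rose by 2.87 ± 0.17 and 2.26 ± 0.10 at day 5 and by 2.63 ± 0.17 and 2.48 ± 0.11 at day 1 on the log2 scale. Irf9 held 109.7 ± 14.6 CPM in exposed day 5 and 23.0 ± 1.87 CPM in uninfected day 5 libraries (edgeR adjusted p = 2.1e-12). Irf7, the nearest neighbour of Slfn8, rose by 6.57 ± 0.33 at day 5 and 5.84 ± 0.33 at day 1. Irf8, a factor of the macrophage lineage, fell by 1.76 ± 0.15 at day 5 and 0.74 ± 0.14 at day 1. In uninfected cultures, where Slfn5 and Slfn8 were higher at day 5, Irf7 rose by 1.17 ± 0.31 (adjusted p = 0.0148) and Irf9 by 0.67 ± 0.10 (adjusted p = 0.00014) between days.

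Of 6 brakes on interferon signalling, 3 were higher and 2 lower at day 5, and 3 higher and 1 lower at day 1, with median log2 fold changes of 0.24 and 0.45. Usp18, which blocks the type I receptor, rose by 8.49 ± 0.46 at day 5 and 7.53 ± 0.48 at day 1. Socs1, a feedback inhibitor of Janus kinases, had a smaller exposure effect at day 5 (log2 fold change 0.55 ± 0.14) than at day 1 (1.74 ± 0.15), a difference of -1.19 ± 0.21 (edgeR adjusted p = 0.000221). Pias1, an inhibitor of interferon signalling, fell by 0.33 ± 0.06 at day 5 and 0.23 ± 0.06 at day 1.

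Other enzymes that cut RNA, and their inhibitor, moved both ways. Of 13 tested genes, 6 were higher and 7 lower at day 5 (28.6% and 28.4% of all tested genes) and 3 higher and 3 lower at day 1 (13.4% and 10.5% of all), with median log2 fold changes of -0.28 and -0.01. Zc3h12a, the endoribonuclease Regnase-1 that degrades cytokine transcripts, rose to 199 ± 41.7 CPM in exposed day 5 libraries, against 44.8 ± 3.77 CPM in uninfected ones (log2 fold change 2.15 ± 0.16, edgeR adjusted p = 2.89e-09). Ang, angiogenin, which cuts transfer RNAs that Slfn2 protects in mouse T cells, averaged 2.81 ± 0.396 CPM in exposed day 5 and 6.28 ± 0.747 CPM in uninfected day 5 libraries (log2 fold change -1.15 ± 0.13, adjusted p = 4.62e-07).

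Slfn1 and Slfn2 were first described as brakes on lymphocyte growth, so genes of cyclin D and quiescence were set beside them. Of 17 tested genes, 2 were higher and 11 lower at day 5 (28.6% and 28.4% of all tested genes) and 2 higher and 9 lower at day 1 (13.4% and 10.5% of all), with median log2 fold changes of -0.51 and -0.26. Ccnd3, a D cyclin, fell to 42.9 ± 5.38 CPM in exposed day 5 libraries, against 212 ± 13.2 CPM in uninfected ones (log2 fold change -2.30 ± 0.09, edgeR adjusted p = 5.93e-13). Ccnd1 fell by 2.55 ± 0.15 on the log2 scale. The quiescence genes Tob1 and Klf4 fell too, by 1.52 ± 0.07 and 1.62 ± 0.08, as did the growth gene Myc, by 1.54 ± 0.09.

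For the replication stress genes among which human SLFN11 acts, 0 of 14 were higher and 12 lower at day 5 (28.6% and 28.4% of all tested genes), and 0 were higher and 6 lower at day 1 (13.4% and 10.5% of all), with median log2 fold changes of -1.13 and -0.37. Rpa1, which coats single-stranded DNA, fell to 43.6 ± 11.6 CPM in exposed day 5 libraries, against 141 ± 7.26 CPM in uninfected ones (log2 fold change -1.70 ± 0.13, edgeR adjusted p = 3.18e-09). Cdt1, a replication licensing factor, fell by 1.36 ± 0.12 on the log2 scale, and Tipin, of the fork protection complex, fell by 1.82 ± 0.16.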

How the data were processed

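Per the labels' protocols, polyadenylated RNA was extracted with a Maxwell instrument. Per the submitters' processing notes, STAR and GRCm39 were used, with no version given. The authors deposited raw gene counts of every library, whose file names mark them as counted on the reverse strand. Symbols came from GENCODE M21, on GRCm38, for 52083 of 55359 genes, so no gene coordinates are given; promoters came from RefSeq on GRCm38.p6. Protein sequences were not used here, and transcripts were aligned instead. The members and lists were chosen with earlier results of these data known.

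Genes passing filterByExpr (17190) were fitted with edgeR 4.0.16 in R 4.3.3: TMM scaling, 1 mean per group, robust quasi-likelihood tests, two-sided, Benjamini-Hochberg over all genes. No p is given for members. p-values measure the spread between cultures of 1 cell line. Tests were checked on simulated data with the same spread for all genes and groups and with changes only in well-counted genes. That check does not cover low counts or a spread that differs between groups. Named list genes are among the 5 with the smallest p in a comparison; neighbours by pattern are the 3 with the highest r (log2 CPM, prior count 2). Promoters were aligned with Biopython 1.88, and figures drawn with matplotlib 3.10.9. DESeq2 1.42.0 was an alternative. Some list genes are counted but not reported here by name.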

Additional observations from a re-analysis of the deposited data

Results flagged for a closer look

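The exposure effect was called different between day 5 and day 1, by the interaction of the edgeR fit, for 5 members. Of all tested genes, 16.4% were called in the upward and 19.5% in the downward direction. On the log2 scale it was larger at day 5 by 5.50 ± 1.51 for Slfn4, 2.41 ± 0.38 for Slfn3, 0.79 ± 0.20 for Slfn2 and 0.67 ± 0.25 for Slfn8, and it was -2.22 ± 0.73 for Slfn5, smaller at day 5. As given above, the Slfn8 and Slfn5 calls were lost in some fits with a library left out. For members these calls are a description, since they were chosen on these values.

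The same interaction was called for the following list genes (edgeR adjusted p between 2.98e-09 and 0.0380). Among receptors and kinases it was 0.94 ± 0.13 for Ifnar2, 1.52 ± 0.24 for Jak2, -0.62 ± 0.11 for Ifngr1, 0.64 ± 0.16 for Ifnar1 and 0.69 ± 0.19 for Jak1. Among factors it was -0.60 ± 0.12 for Irf3, -1.02 ± 0.20 for Irf8, 0.64 ± 0.17 for Irf1 and 0.45 ± 0.14 for Stat3. Among brakes it was -1.19 ± 0.21 for Socs1, -0.61 ± 0.12 for Ptpn6 and 0.97 ± 0.28 for Socs3. Among enzymes that cut RNA it was 1.02 ± 0.13 for Ern1, -1.19 ± 0.19 for Ang, 1.34 ± 0.22 for Zc3h12a and 0.63 ± 0.12 for Xrn1. Among cyclin D and quiescence genes it was -2.04 ± 0.13 for Ccnd3, -1.77 ± 0.13 for Btg2, -1.19 ± 0.10 for Tob1, -1.20 ± 0.12 for Myc and -1.04 ± 0.11 for Klf4. Among replication stress genes it was -1.56 ± 0.22 for Tipin, -1.10 ± 0.19 for Rpa1, -1.29 ± 0.23 for Rpa2, -0.80 ± 0.16 for Cdt1 and -0.58 ± 0.14 for Parp1. Among genes beside the cluster it was 0.75 ± 0.15 for Rffl, -0.40 ± 0.10 for Nle1, -0.34 ± 0.11 for Rad51d and -2.32 ± 0.84 for Fndc8.

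In 28 sets of 4 libraries, 7 members by 4 groups, 0 held a library whose gap to the next passed Dixon's 95% critical value.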

How the results depend on the processing

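Of the fold changes of members under all alternatives, 818 kept their direction and their side of the threshold. Another 36 lost a call, 22 gained one and 9 turned. Of those of list genes, 3643 kept both and 185 lost a call. List genes entered only where called in the main fit, up to 5 per list and comparison with the smallest p, plus Slfn10-ps for exposure. Fits that did not test a gene were left out. So chosen, they could hardly gain a call, and their tally does not stand for list genes in general. Of counts over the lists, 1761 stayed near the main count and 223 moved. With counts of close paralogs summed (Slfn8 with Slfn9, Slfn3 with Slfn4), a fit that replaces each gene by its pair, the exposure effect was 2.85 at day 5 and 1.56 at day 1 for Slfn8 with Slfn9 and 7.88 and 2.36 for Slfn3 with Slfn4. In that fit Slfn9 was at 1.29 for the change between days and 0.90 for exposed day 5 against day 1, and Slfn8 was at -0.39 and Slfn4 at -0.29 for uninfected day 5 against day 1. The uninfected difference of Slfn4 ran from -0.021 (without uninfected day 1 replicate 4) to 0.48 with 1 library left out, and was -0.055 with replicates 1 and 2 alone. The exposed difference of Slfn5 between days ran from -0.14 (without exposed day 5 replicate 4) to 0.27 with 1 library left out, was -0.015 without exposed day 1 replicate 3, and was -0.22 with replicates 1 and 2 alone; neither difference was called with all libraries. The cause of these changes was not tested.

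Counts of called genes moved with the libraries in the fit, and the cause was not tested. For exposure at day 1, 2297 genes were higher and 1800 lower, against 3650 and 3371 with libraries of the comparison alone, 813 and 406 with replicates 1 and 2 alone and 568 and 156 with replicates 3 and 4 alone, and 2894 lower without the exposed day 5 libraries of another code. For the change between days, 2826 and 3347 became 1481 and 1675 with replicates 1 and 2 and 811 and 1083 with replicates 3 and 4. For uninfected day 5 against day 1, 1852 and 1532 became 3386 and 3038 with the libraries of the comparison alone, 2800 and 2513 without the libraries of another code, 422 and 187 with replicates 1 and 2 and 386 and 195 with replicates 3 and 4; leaving out 1 library gave 1227 to 2436 higher and 881 to 2221 lower. For exposed day 5 against day 1, 4406 and 4335 became 2467 and 2480 with replicates 3 and 4. Members called for the change between days were 2 higher with replicates 1 and 2, 1 higher with replicates 3 and 4 and 0 lower in both, and 0 to 1 lower with 1 library left out. Members called between uninfected days were 0 in either direction with replicates 1 and 2 or 3 and 4, 4 higher with DESeq2, and 1 to 4 higher with 1 library left out.

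Replicate numbers are shared between groups, and the sample titles do not say whether same-numbered cultures were set up together. Deviations from the group mean had r between -0.151 and 0.148 for same-numbered libraries and between -0.347 and 0.302 for the others. Such r cannot decide whether cultures were paired, and the main fit used no pairing. With the replicate block, 4810 genes were called higher and 4826 lower at day 5, 7 members were called higher at day 1 (Slfn3 added) and 3 for the change between days (Slfn8 lost). Low counts limit Slfn1, Slfn4 and Slfn5 in uninfected cells, where fold changes rest on few reads.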
